A study of Mus musculus with 12 samples.

Results

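The 100 genes described here carry symbols used for subunits of the respiratory chain and ATP synthase, with cytochrome c, though not every product is a subunit. They were chosen by symbol alone. The choice took the genes starting with Nduf (without the Ndufaf assembly factors), Sdha to Sdhd, the genes starting with Uqcr, Cox4 to Cox8 or Atp5, the protein-coding mitochondrial genes, and Cyc1 and Cycs, without pseudogenes. They are 100 of 45563 gene symbols, 87 of them in the nucleus and 13 in the mitochondrial genome. By complex, 45 were placed in complex I, 4 in complex II, 10 in complex III, 21 in complex IV and 19 in complex V, and Cycs stood alone. The grouping follows the symbols, so that Ndufa4, now known as a subunit of complex IV, was kept in complex I, and Atp5sl, whose current name is Dmac2 and whose product helps to assemble complex I, was kept in complex V.

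Complexes I and II take electrons from NADH and succinate and pass them through ubiquinone to complex III, cytochrome c and complex IV, which reduces oxygen to water. The protons pumped on the way drive complex V, which makes ATP. Subunits come from both the nuclear and the mitochondrial genome, except in complex II, which is encoded in the nucleus alone, and oligodendrocyte precursor cells (OPCs), the proliferating progenitors of myelinating cells, draw on this chain as they divide and mature.

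RNA was sequenced in bulk from OPCs of C57BL/6 wild-type (WT) pups and of pups with a germline knockout of TNFR2, a receptor for TNF (TNFR2-/-). Cells were taken from the cortices of pups aged p2 to p5 by the labels (the study's methods give a narrower range), selected with beads against PDGFRα, and kept in medium with PDGF-AA and FGF2. After 3 days in vitro they received PBS vehicle (non-stimulated, NS) or TNF, IFNγ and IL1β at 25 ng/mL each for 3 h (stimulated, St). There were 3 libraries for each of the 4 combinations of genotype and treatment (WT NS, WT St, TNFR2-/- NS, TNFR2-/- St), and the comparisons asked what the receptor's loss, the cytokines and both together did to these transcripts. In each genotype an NS and an St library share a replicate number and are called 1 culture here, since they deviated together from their group means. The test did not use this pairing except where a replicate block is named. For St against NS, and for the difference between these responses, the block pairs the libraries of a culture. Between genotypes it pairs nothing and enters only as a correlation within cultures, common to all genes. Whether cultures came from separate animals or litters is not stated, so p-values measure the spread between these libraries.

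Library totals ranged from 26886878 to 30335265 read pairs, and levels are given as RPM (reads per 1000000 read pairs of the library), from reads recovered from the deposited FPKM. Groups are named by their labels, which the targeted gene went against: in vehicle Tnfrsf1b had 12 to 24 reads in WT libraries but 213 to 346 in the libraries labelled TNFR2-/-. With cytokines it had 61 to 145 reads in WT libraries and 282 to 356 in the libraries labelled TNFR2-/-. Which exons these reads cover is not known here, and every direction between genotypes rests on the labels. The summed level of 6 OPC markers was 3914 to 4913 RPM in NS and 2727 to 3204 RPM in St libraries, and 4 of 6 microglia markers had at most 3 reads in any library. Both libraries of TNFR2-/- culture 5 stood apart. The summed level of 5 astrocyte markers was 1570 RPM in its NS and 1520 RPM in its St library, against 687 to 723 RPM in the other TNFR2-/- libraries in vehicle and 411 to 538 RPM in WT NS. Gpr17, among the 6 OPC markers, had 1204 RPM in the NS library of culture 5, against 264 to 420 RPM in the other NS libraries. In the St library of culture 5 it had 649 RPM, against 90.7 to 222 RPM in the other St libraries. Because the RNA is from bulk cultures, fewer cells of a type and less RNA per cell cannot be told apart. Comparisons between groups were therefore also made without both libraries of culture 5.

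The 87 nuclear genes together took 1.38% ± 0.0323 (SD, n = 3) of the reads on genes in WT NS, 1.63% ± 0.137 in TNFR2-/- NS, 1.39% ± 0.0282 in WT St and 1.46% ± 0.139 in TNFR2-/- St. The 3 TNFR2-/- NS libraries, at 1.64%, 1.76% and 1.49%, all lay above the WT NS libraries, at 1.41%, 1.35% and 1.38%. The lowest of them was that of culture 5. The TNFR2-/- St libraries, at 1.55%, 1.54% and 1.30%, lay on both sides of the WT St libraries. The 13 mitochondrial genes took a larger part of the reads, with 5.36% ± 0.316 in WT NS, 5.72% ± 0.309 in TNFR2-/- NS, 4.89% ± 0.0739 in WT St and 5.52% ± 0.331 in TNFR2-/- St. All 3 TNFR2-/- St libraries, at 5.24% to 5.88%, lay above the WT St libraries, at 4.85% to 4.98%, whereas in vehicle the genotypes overlapped. The 95% Wilson interval of a share in 1 library was at most 0.0170 percentage points wide, which covers counting error only.

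**Figure D1:**
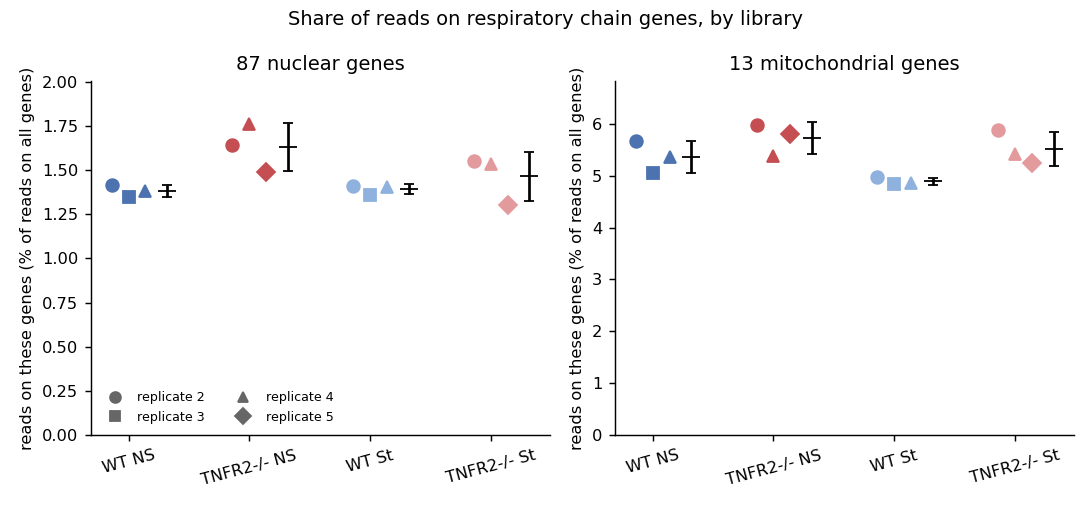
Reads on the 87 nuclear (left) and 13 mitochondrial (right) respiratory chain genes as a percent of the reads on all genes (vertical axis), with 1 point per library, shaped by replicate number, in each of the 4 groups, and the mean ± SD of 3 libraries beside them. Nuclear shares of the TNFR2-/- NS libraries, 1.49% to 1.76%, lie above all 3 WT NS libraries, and mitochondrial shares of the WT St libraries lie below all 3 TNFR2-/- St libraries.

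Levels between genes were compared per kilobase of annotated transcript, as the mean over 12 libraries, since the lengths behind the deposited FPKM are unrelated to the annotation. Of 13 mitochondrial genes, 7 were the most abundant of all members, at 1898 to 12080 RPM per kilobase, led by mt-Co1, the catalytic subunit of complex IV. The other 6, mt-Co2, mt-Co3, mt-Atp6, mt-Atp8, mt-Nd3 and mt-Nd4l, lay at 2.73 to 16.1 RPM per kilobase, although they are cut from the same long transcript as most of the abundant ones. Of these 6, 5 share 97.6% to 99.9% of their 100-base sequences with nuclear copies, whereas mt-Atp8 shares 0%. A read that matches a gene and its copy cannot be given to either, so their counts are uncertain, and the cause of the low counts was not tested. The copies were themselves low, with 310 to 554 reads in any library for Gm10925, which resembles mt-Atp6, and 117 to 222 for Gm28437. Among nuclear genes, Atp5b, the catalytic beta subunit of complex V, was the most abundant at 1059 RPM per kilobase, followed in complex IV by Cox8a at 722. Medians were 89.4 RPM per kilobase for complex I, 117 for complex II, 212 for complex III, 227 for complex IV and 213 for complex V.

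**Figure D2:**
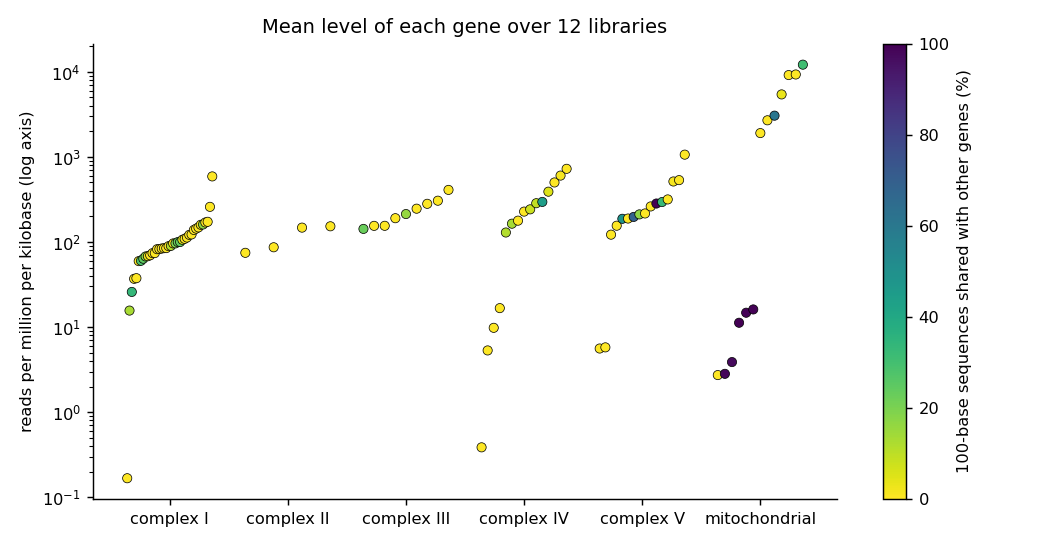
Mean level of each tested gene over 12 libraries, in RPM per kilobase of transcript on a log axis, by complex for nuclear genes and for the mitochondrial genes, coloured by the percent of its 100-base sequences that other genes share. The 7 abundant mitochondrial genes lie above every nuclear gene, at 1898 or more, and the other 6 lie at 16.1 or less.

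Of the isoform sets, the forms known from most tissues carried nearly all reads. Cox4i1 lay at 389 RPM per kilobase and Cox4i2, its partner known from lung, had 3 to 14 reads per library. Cox6a1 lay at 601 and the muscle form Cox6a2 at 5.31 RPM per kilobase. Cox7a2 lay at 227 and the muscle form Cox7a1 at 9.78 RPM per kilobase, and Cox6b1 at 499 against 16.7 for the testis form Cox6b2. Cox8a was accompanied by Cox8b with 0 to 9 reads and by Cox8c with 0 reads in all libraries, and Cox7b, at 178 RPM per kilobase, by Cox7b2 with 0 to 2 reads. Ndufa4 lay at 588 RPM per kilobase, and Ndufa4l2, a gene known to respond to hypoxia, had 0 to 9 reads. The c subunit of the ATP synthase ring has 3 genes for the same mature protein, and of these Atp5g3 lay at 532, Atp5g2 at 282 and Atp5g1 at 187 RPM per kilobase. All 100-base sequences of Atp5g2 recur in other genes, which makes its count uncertain, although those copies, Gm10175 and Gm10231, had at most 8 reads. Cox4i2, Cox7b2 and Cox8c were too low to be tested, which left 97 genes, 84 nuclear and 13 mitochondrial.

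Nuclear respiratory genes are known to share promoter elements, the best studied being the site of NRF1, which was described in the gene of cytochrome c. In the 77 promoters found for 71 of the 87 nuclear genes (250 bases before to 50 after the start, RefSeq, GRCm38.p6), the letters GCATGCGC of the NRF1 site, searched on both strands, stood in 14.3%, against 2.71% of all 32851 promoters. The letters CCGGAAG, bound by ETS factors such as GABP, stood in 20.8% against 8.86%, AAGATGGC (YY1) in 15.6% against 2.75%, and GGGCGG (SP1) in 40.3% against 35.7%. Matches were counted separately and may overlap. The stretches below are shown because Cycs holds the classical site and because Sdhb, Ndufa6 and Ndufa11 are the holders of the match that fell with cytokines in TNFR2-/- OPCs, and the capitals mark the match.
Cycs, chr6:50566600-50566651, minus strand, match 60 bases before the start: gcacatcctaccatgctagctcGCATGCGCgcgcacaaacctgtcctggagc
Sdhb, chr4:140961195-140961246, plus strand, match 54 bases before the start: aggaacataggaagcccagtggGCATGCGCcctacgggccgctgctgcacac
Ndufa6, chr15:82354345-82354396, minus strand, match 83 bases before the start: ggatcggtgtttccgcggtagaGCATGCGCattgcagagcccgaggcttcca
Ndufa11, chr17:56717682-56717733, plus strand, match 58 bases before the start: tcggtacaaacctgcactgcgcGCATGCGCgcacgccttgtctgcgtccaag
In TNFR2-/- NS vs WT NS the 11 tested holders had a median log2 fold change of 0.17 and the 59 genes without it 0.22, and in TNFR2-/- St vs TNFR2-/- NS these medians were −0.18 and −0.20.

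In non-stimulated OPCs, 19 nuclear genes, most of them in complexes I, II and III, were expressed more in TNFR2-/- than in WT cells, by a small margin. The test was limma's, on log2(FPKM + 0.5) for 18081 genes, and a gene passed it (was called) when its p, adjusted by Benjamini-Hochberg over all of them, did not exceed 0.05. Of 84 nuclear genes, 19 rose (22.6%) and 0 fell, where 6.11% of all genes tested were called higher and 4.75% lower. The log2 fold change was above 0 for 83 of the 84, with a median of 0.22, against 0.04 for all genes. In 61 (72.6%) all 3 TNFR2-/- libraries lay above all 3 WT libraries, against 19.9% of all genes. The range ran from −0.22 for Cox6a2 (SE 0.36, adjusted p = 0.726) to 0.65 for Cox7a1.

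**Figure D3:**
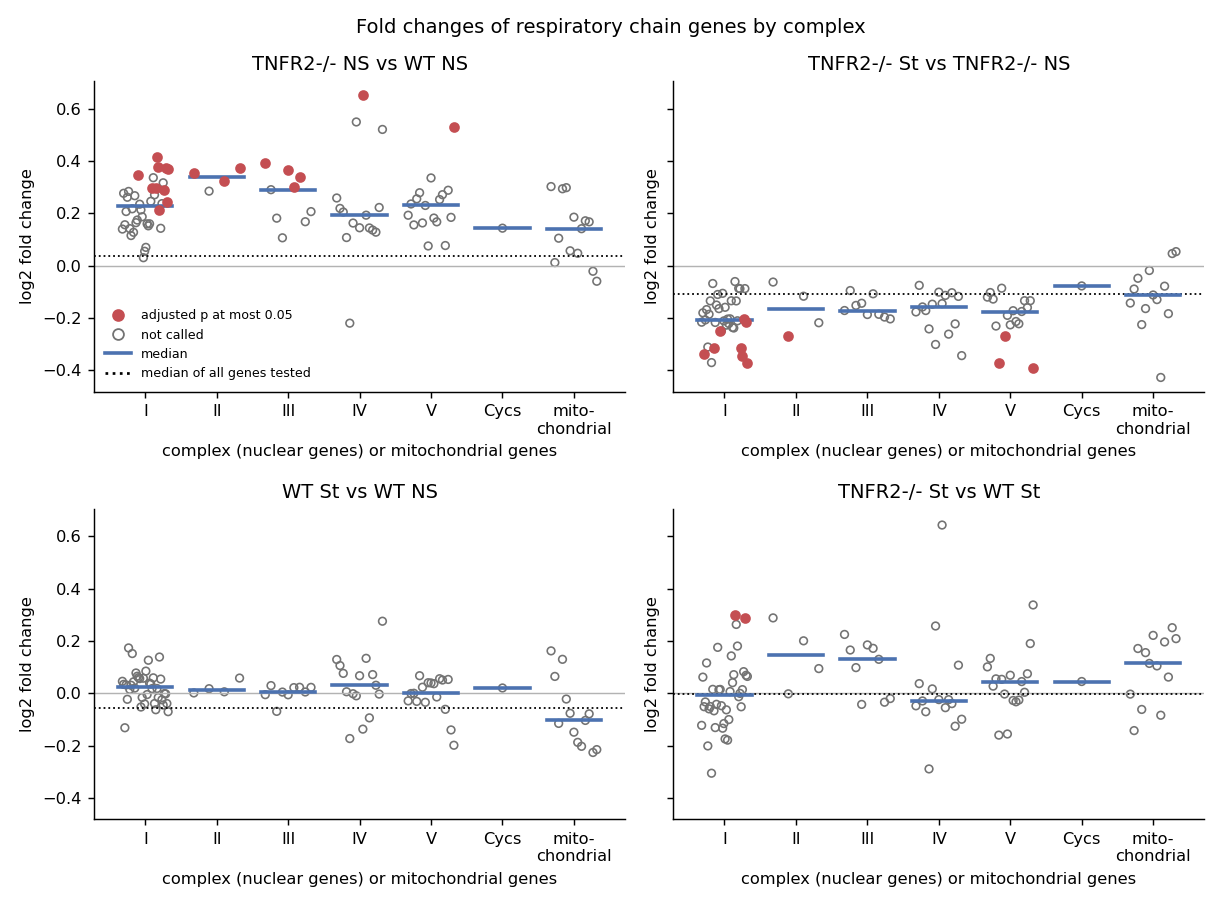
Log2 fold change (vertical axis) of each respiratory chain gene in 4 comparisons, by complex for nuclear genes, for Cycs and for the 13 mitochondrial genes. Filled red points passed an adjusted p of 0.05, blue bars are medians of the columns, and the dotted line is the median of all genes tested. Nuclear genes lie above 0 in TNFR2-/- NS vs WT NS (83 of 84) and below 0 in TNFR2-/- St vs TNFR2-/- NS (84 of 84).

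In complex I, the NADH dehydrogenase, all 38 nuclear genes were above 0 in this comparison, with a median log2 fold change of 0.23, and 10 rose. Ndufv1 (ENSMUSG00000037916, chr19:4007384-4012806), which encodes the subunit that binds NADH and FMN, had 135, 128 and 131 RPM in WT NS and 176, 171 and 163 RPM in TNFR2-/- NS. The groups did not overlap. The log2 fold change was 0.37 (SE 0.05, adjusted p = 0.00924, range over alternatives 0.00200 to 0.0833). Ndufs1 (ENSMUSG00000025968, chr1:63143596-63176833), which encodes the largest subunit and carries iron-sulfur clusters, had 171, 156 and 156 RPM in WT NS and 202, 200 and 194 RPM in TNFR2-/- NS. Here too every TNFR2-/- library was higher, with a log2 fold change of 0.30 (SE 0.06, adjusted p = 0.0175).

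The 7 nuclear genes of the catalytic core, Ndufv1 and Ndufs1 among them, had a median log2 fold change of 0.32 and 6 of them rose. The 31 remaining nuclear genes of complex I, which encode accessory subunits, had a median of 0.21 and 4 rose, Ndufb9, Ndufv3, Ndufa9 and Ndufs4. This grouping was made after the values were seen. Transcripts of the core genes are 758 to 2590 bases long, all above the nuclear median of 745. Of the core genes, Ndufs3, Ndufs8 and Ndufv2 rose by 0.38, 0.29 and 0.24, and Ndufs7 had a value of 0.32 with an adjusted p of 0.0551, or 0.0383 with a replicate block. The accessory genes Ndufv3 and Ndufb9 changed by 0.37 (adjusted p = 0.0199) and 0.30 (adjusted p = 0.0188). Ndufb2 was the lowest nuclear gene, at 0.03 (SE 0.09, adjusted p = 0.868), and Ndufa4 and Ndufa4l2 had values of 0.12 and 0.22 (adjusted p = 0.537 and 0.295).

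Complex II, the succinate dehydrogenase that also belongs to the citric acid cycle, was higher in TNFR2-/- OPCs for all 4 genes, of which 3 rose. Sdha (ENSMUSG00000021577, chr13:74322254-74350280), the flavoprotein that oxidises succinate, had 394, 371 and 372 RPM in WT NS and 510, 490 and 452 RPM in TNFR2-/- NS, without overlap. The log2 fold change was 0.35 (SE 0.08, adjusted p = 0.0228). Sdhd (ENSMUSG00000000171, chr9:50596357-50603812) and Sdhc, the membrane anchors, rose by 0.37 (SE 0.08, adjusted p = 0.0204) and 0.32 (SE 0.07, adjusted p = 0.0211). Sdhb, which carries the iron-sulfur clusters, had 158 to 171 RPM in WT NS and 182 to 220 RPM in TNFR2-/- NS, and its value of 0.28 (SE 0.08) missed the threshold at an adjusted p of 0.0542, passing it with a replicate block (adjusted p = 0.0361). The groups did not overlap for any of the 4 genes.

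In complex III, the cytochrome bc1 complex, all 9 nuclear genes were above 0 with a median log2 fold change of 0.29, and 4 rose. Cyc1 (ENSMUSG00000022551, chr15:76343523-76346260), which encodes cytochrome c1, had 219, 200 and 209 RPM in WT NS and 270, 311 and 247 RPM in TNFR2-/- NS, with a change of 0.39 (SE 0.10, adjusted p = 0.0320). The Rieske protein gene Uqcrfs1 changed by 0.34 (adjusted p = 0.0417). The core genes Uqcrc1 and Uqcrc2 changed by 0.37 and 0.30 (adjusted p = 0.0474 and 0.0225), and Uqcrb was the lowest nuclear gene at 0.11 (SE 0.08, adjusted p = 0.427). Cycs (ENSMUSG00000063694, chr6:50562563-50566538), the mobile carrier between complexes III and IV, had 115, 109 and 113 RPM in WT NS and 133, 134 and 108 RPM in TNFR2-/- NS. The library of culture 5 lay among the WT values, and the log2 fold change of 0.14 (SE 0.09) did not pass the test (adjusted p = 0.332).

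Complex IV, cytochrome c oxidase, had 1 call among its 15 tested nuclear genes, although 14 were above 0 and the median log2 fold change was 0.19. The call was Cox7a1 (ENSMUSG00000074218, chr7:30184144-30186078), a low gene in these cells. It had 3.46, 2.71 and 3.17 RPM in WT NS and 4.29, 4.99 and 5.54 RPM in TNFR2-/- NS, and its change was 0.65 (SE 0.18, adjusted p = 0.0417, range over alternatives 0.0306 to 0.150). Its abundant partner Cox7a2 had a value of 0.19 (SE 0.12, adjusted p = 0.305). Cox4i1 had 258, 279 and 261 RPM in WT NS and 313, 355 and 291 RPM in TNFR2-/- NS, so that the groups did not overlap, but its value of 0.26 (SE 0.09) had an adjusted p of 0.0891. Cox6a1, Cox6b1, Cox7b, Cox7a2l and Cox8a had values of 0.11, 0.16, 0.14, 0.14 and 0.22, and none passed the test (adjusted p from 0.0873 to 0.591). The low isoforms Cox6b2 and Cox8b had values of 0.55 (SE 0.28, adjusted p = 0.215) and 0.52 (SE 0.20, adjusted p = 0.107).

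In complex V, the ATP synthase, all 17 tested nuclear genes were above 0 with a median log2 fold change of 0.23, and only Atp5sl, which by its function belongs to the assembly of complex I, rose. Atp5sl (ENSMUSG00000057229, chr7:25619414-25625551) had 13.2, 12.3 and 11.8 RPM in WT NS and 15.8, 19.0 and 19.4 RPM in TNFR2-/- NS, with a change of 0.53 (SE 0.09, adjusted p = 0.0142). Atp5b (ENSMUSG00000025393, chr10:128083273-128090391) had 1965, 1832 and 1893 RPM in WT NS and 2291, 2364 and 2054 RPM in TNFR2-/- NS. Its groups did not overlap and its value of 0.24 (SE 0.08) missed the threshold (adjusted p = 0.0732). Of the ring genes, Atp5g1 and Atp5g3 had values of 0.23 and 0.34 (adjusted p = 0.0758 and 0.0774), and Atp5g2 was the lowest nuclear gene of the complex at 0.08 (adjusted p = 0.534).

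None of the 13 mitochondrial genes passed the test between the genotypes in vehicle (0 called by limma, 1 with an unadjusted p under 0.05), and their median log2 fold change was 0.14. For the 7 with over 1000 reads in a library the median was 0.06. mt-Nd1 and mt-Nd4, subunits of the membrane arm of complex I, had values of 0.19 and 0.17 (adjusted p = 0.202 and 0.222), mt-Co1 0.10 and mt-Cytb, the cytochrome b of complex III, 0.06. mt-Nd2, mt-Nd5 and mt-Nd6 had values of 0.05, −0.02 and −0.06. For mt-Nd5 the WT NS libraries had 5220, 4721 and 5265 RPM and the TNFR2-/- NS libraries 5334, 4235 and 5490 RPM, so that the groups overlapped. The 6 low genes had values of 0.29 (mt-Co2), 0.30 (mt-Co3), 0.30 (mt-Atp6), 0.01 (mt-Atp8), 0.14 (mt-Nd3) and 0.17 (mt-Nd4l), with adjusted p from 0.123 to 0.968.

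**Figure D4:**
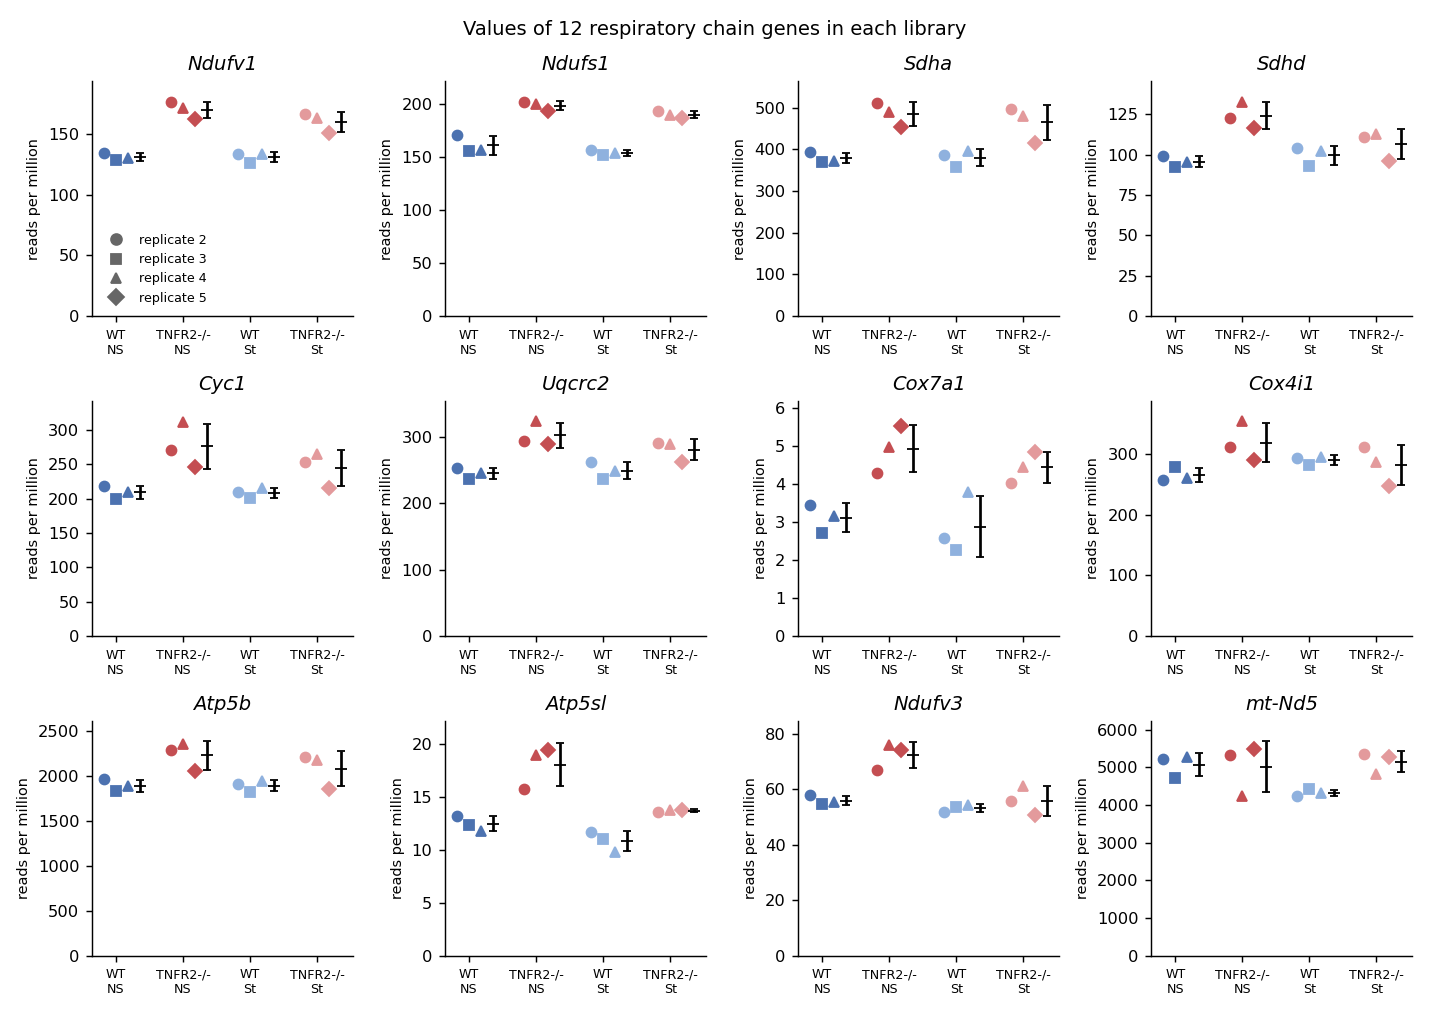
RPM (vertical axes, from 0) of 12 respiratory chain genes in each library of the 4 groups, shaped by replicate number, with the mean ± SD of 3 libraries. Ndufv1, Ndufs1, Sdha, Sdhd, Cyc1, Uqcrc2, Cox7a1 and Atp5sl are higher in all 3 TNFR2-/- NS than in all 3 WT NS libraries, and mt-Nd5 overlaps between these groups.

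Without both libraries of TNFR2-/- culture 5, a choice made after seeing the data, 46 of the 84 nuclear genes rose in TNFR2-/- NS vs WT NS, where 2.78% of all genes were called higher, and the median log2 fold change was 0.28. The astrocyte markers were still higher in the 2 remaining TNFR2-/- NS libraries than in WT NS (687 to 723 against 411 to 538 RPM). With all 12 libraries, the 6 mature oligodendrocyte markers were also all above 0, with a median of 0.41 and 0 called. Their summed levels overlapped, at 468 to 752 RPM in TNFR2-/- NS and 275 to 780 RPM in WT NS. The part of either cell type in the result was not tested. The number of calls rested on few libraries. Leaving out 1 library gave 0 calls for WT NS 3, 1 call for WT NS 4, 5 calls for TNFR2-/- NS 2 and for TNFR2-/- NS 5, and 33 calls for TNFR2-/- St 5, and the 6 NS libraries alone gave 0. The median log2 fold change was 0.17 to 0.28 when any 1 of the 12 libraries was left out. The 42 genes with transcripts over the median length of 745 bases held 17 of the 19 calls, and the 41 shorter ones 2, with medians of 0.25 and 0.18. Whether length had a part in this was not tested.

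In TNFR2-/- St vs TNFR2-/- NS, 12 of 84 nuclear genes fell (14.3%), a share no higher than the 16.3% of all genes that were called lower. No member rose, where 9.62% of all genes were called higher. All 84 were below 0, with a median log2 fold change of −0.18 against −0.11 for all genes. In 24 (28.6%) the libraries of the groups did not overlap, against 24.7% of all genes. With the libraries of a culture paired in a replicate block, 59 of the 84 fell, against 31.7% of all genes, namely 29 of complex I, 3 of complex II, 7 of complex III, 7 of complex IV and 13 of complex V. Scaled by median-of-ratios factors, which move the median of all genes from −0.11 to −0.02, the median of the 84 was −0.07, 17 were above 0 and 2 fell.

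Without the block, the 12 falls were in complexes I, II and V. Ndufv3, an accessory subunit of complex I, had 66.9, 75.8 and 74.2 RPM in TNFR2-/- NS and 55.6, 61.3 and 50.5 RPM in TNFR2-/- St. All 3 cultures were lower after stimulation and the groups did not overlap. The log2 fold change was −0.37 (SE 0.07, adjusted p = 0.00401), and it passed the test under every alternative tried (adjusted p from 0.00202 to 0.0469). Atp5sl had 15.8, 19.0 and 19.4 RPM in TNFR2-/- NS and 13.6, 13.7 and 13.8 RPM in TNFR2-/- St, a change of −0.39 (SE 0.09, adjusted p = 0.00852). Both genes were also higher in TNFR2-/- NS than in WT NS, as were Ndufs8 and Ndufv2, but these comparisons share the TNFR2-/- NS libraries.

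The other falls in complex I were small. Ndufa11 had 72.3, 83.7 and 69.8 RPM in TNFR2-/- NS and 59.2, 65.0 and 54.1 RPM in TNFR2-/- St, a change of −0.34 (SE 0.08, adjusted p = 0.0110). Ndufs7, Ndufs6 and Ndufa6 changed by −0.35, −0.31 and −0.31 (adjusted p = 0.0203, 0.0336 and 0.0196), Ndufb10 by −0.25 (adjusted p = 0.0185), and Ndufv2 and Ndufs8 by −0.21 each (adjusted p = 0.0355 and 0.0465). Ndufs1, by contrast, had 202, 200 and 194 RPM in TNFR2-/- NS and 193, 190 and 187 RPM in TNFR2-/- St, and its value of −0.06 (SE 0.06, adjusted p = 0.468) was the nearest to 0 among the nuclear genes of the complex.

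Sdhb was the call of complex II, with 200, 220 and 182 RPM in TNFR2-/- NS and 175, 175 and 148 RPM in TNFR2-/- St and a change of −0.27 (SE 0.08, adjusted p = 0.0378). Sdha had a value of −0.06 (adjusted p = 0.593). In complex V, Atp5e, the small epsilon subunit, changed by −0.37 (SE 0.11, adjusted p = 0.0302) and Atp5g1 by −0.27 (SE 0.08, adjusted p = 0.0262), while Atp5f1 had −0.09 (adjusted p = 0.327). No nuclear gene of complexes III and IV passed the test without the block, while 7 of each passed it with the block. Their lowest values were −0.20 for Uqcrq and −0.34 for Cox8b, a gene with at most 9 reads, and their highest were −0.10 for Uqcr10 and −0.08 for Cox5a, and Cycs had −0.08. No mitochondrial gene fell (0 called, 1 with an unadjusted p under 0.05), and the 7 abundant ones had a median of −0.05. The lowest of them all was mt-Nd3 at −0.43 (SE 0.17, adjusted p = 0.0897), a gene with 30 to 61 reads.

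In place of 12 calls, leaving out TNFR2-/- NS 4 or TNFR2-/- St 5 gave 3, TNFR2-/- NS 2 gave 6 and TNFR2-/- NS 5 gave 26. Without both libraries of culture 5, 17 nuclear genes fell, against 12.8% of all genes, with a median of −0.16 and all 84 below 0. The astrocyte markers, at 687 to 1570 RPM in TNFR2-/- NS and 716 to 1520 RPM in TNFR2-/- St, covered nearly the same range in both groups.

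In WT OPCs, the same cytokines left the nuclear genes near their vehicle level. No member was called (0 of 97 by limma, 4 with an unadjusted p under 0.05, 1 by voom), where 7.70% of all genes were called higher and 8.36% lower. Of 84 nuclear genes, 52 were above 0, with a median log2 fold change of 0.02 against −0.05 for all genes, and with median-of-ratios factors 74 were above 0 with a median of 0.08. Ndufs4, an accessory subunit of complex I, had 57.7, 57.8 and 56.8 RPM in WT NS and 65.0, 62.9 and 62.0 RPM in WT St. The groups did not overlap, and the value of 0.14 (SE 0.05) had an adjusted p of 0.107, or 0.0398 with a replicate block. Sdha had a value of 0.00 and Sdhb of 0.02 in this comparison.

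The 7 abundant mitochondrial genes were all lower in WT St than in WT NS, with a median of −0.15. mt-Nd2 had 6082, 5712 and 5656 RPM in WT NS and 5157, 5200 and 4959 RPM in WT St, and mt-Nd6 had 1011, 1005 and 1073 RPM in WT NS and 870, 895 and 893 RPM in WT St. The groups overlapped for neither gene. mt-Nd5 had 4721 to 5265 RPM in WT NS and 4248 to 4413 RPM in WT St, also without overlap. Their log2 fold changes of −0.19, −0.22 and −0.23 had adjusted p values of 0.0652, 0.258 and 0.149. These were the 3 of 13 mitochondrial genes (23.08%) whose WT St libraries all lay below the WT NS libraries. Among all genes that share was similar, at 23.95%. With a replicate block, 8 members passed the test, against 31.6% of all genes in either direction. mt-Nd1, mt-Nd2, mt-Nd5, mt-Nd6, Ndufa11 and Atp5sl were lower, and Cox7a2 and Ndufs4 were higher, with adjusted p from 0.0192 to 0.0487.

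The difference between the responses of the genotypes was tested as an interaction, in which 0.00553% of all genes were called in either direction. No member passed (0 of 97 by limma, 14 with an unadjusted p under 0.05, 0 by voom and 0 with a replicate block, where the smallest adjusted p was 0.0968). Of 84 nuclear genes, 82 had an interaction below 0, with a median of −0.20 against −0.05 for all genes. This was not particular to them. Cytosolic ribosomal protein genes had 90 of 98 below 0 (median −0.22), and mitochondrial ribosomal protein genes 75 of 76 (median −0.19). The smallest adjusted p was 0.533 for Ndufs4 (−0.23, SE 0.07), and Ndufa2 (−0.49), Ndufv3 (−0.30), Ndufa6 (−0.33), Atp5e (−0.44) and Ndufa4l2 (−0.52, at most 9 reads) followed at 0.537 to 0.559. Within cultures, the median difference between St and NS over the 84 nuclear genes was 0.00, 0.01 and 0.03 in WT cultures 2, 3 and 4. In TNFR2-/- cultures 2, 4 and 5 it was −0.09, −0.22 and −0.24, with 76, 84 and 83 genes below 0. For the 7 abundant mitochondrial genes the WT medians were −0.22, −0.07 and −0.16 and the TNFR2-/- medians −0.02, 0.01 and −0.14, so that the genotype with the lower nuclear medians did not have the lower mitochondrial ones.

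**Figure D5:**
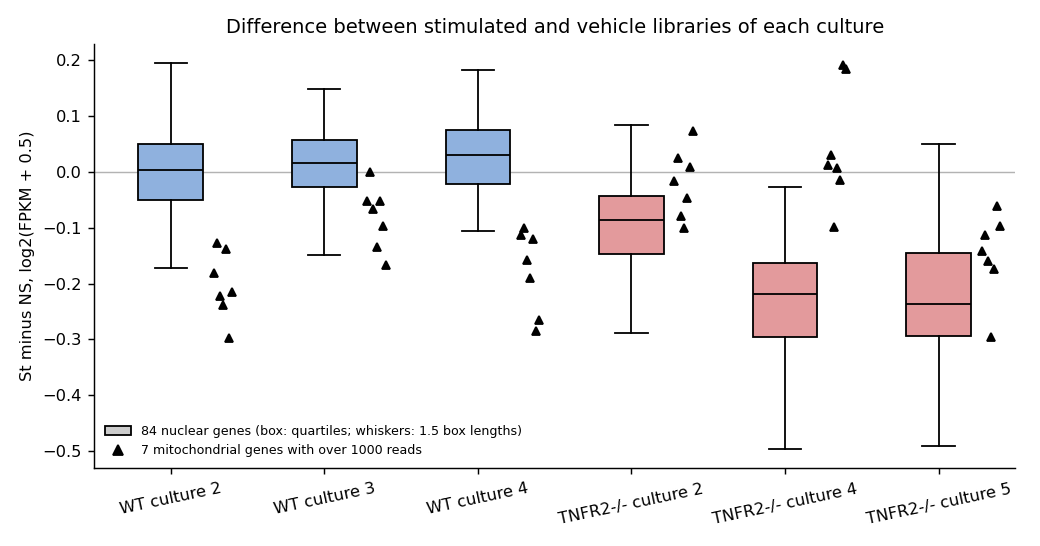
Difference between the stimulated and the vehicle library of each culture (vertical axis, log2(FPKM + 0.5)) for the 84 nuclear genes (boxes with quartiles, whiskers of 1.5 box lengths) and for the 7 mitochondrial genes with over 1000 reads (triangles). Nuclear medians lie at 0.00 to 0.03 in the 3 WT cultures and at −0.24 to −0.09 in the 3 TNFR2-/- cultures.

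Between the stimulated cultures of the genotypes, the nuclear genes had no common direction. In TNFR2-/- St vs WT St, 2 of 84 rose (2.38%) and 0 fell, where 2.70% of all genes were called higher and 2.75% lower, and the median log2 fold change was 0.01 with 44 of 84 above 0. In 12 genes (14.3%) all TNFR2-/- libraries lay above all WT libraries, against 15.4% of all genes. Both calls were core genes of complex I. Ndufs1 had 157, 152 and 154 RPM in WT St and 193, 190 and 187 RPM in TNFR2-/- St, a change of 0.30 (SE 0.06, adjusted p = 0.0217). Ndufv1 had 134, 126 and 133 RPM in WT St and 166, 163 and 151 RPM in TNFR2-/- St, a change of 0.29 (SE 0.05, adjusted p = 0.0218). Leaving out WT St 3 or TNFR2-/- St 2 gave 0 calls, WT St 4 gave 1 and TNFR2-/- NS 5 gave 4. The astrocyte markers were higher in the TNFR2-/- St libraries, with summed levels of 716 to 1520 RPM against 426 to 541 RPM in WT St. All 5 markers were without overlap between these groups, at a median log2 fold change of 1.31, although 0 passed the test (4 had an unadjusted p under 0.05), and their part in the result was not tested.

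With a replicate block, 4 genes rose, against 3.34% of all genes, the additional ones being Sdha and Atp5sl, whose values of 0.29 (SE 0.08) and 0.34 (SE 0.09) had adjusted p values of 0.0523 and 0.0525 without the block. Without culture 5, 4 nuclear genes rose, against 1.03% of all genes, 69 of 84 were above 0 and the median was 0.09. The 7 core genes of complex I were all above 0 in TNFR2-/- St vs WT St with a median of 0.18, and 11 of the 31 accessory genes were, with a median of −0.05. All 7 core genes have transcripts over the median length of 745 bases, and the part of length in this difference was not tested. Cox7a1 had 2.27 to 3.79 RPM in WT St and 4.03 to 4.84 RPM in TNFR2-/- St, with a value of 0.64 (SE 0.18, adjusted p = 0.0569), the highest of the members. Sdhb, Sdhc and Sdhd had values of −0.002, 0.20 and 0.09, Cyc1 had 0.23 and Cycs 0.05 (adjusted p from 0.0936 to 0.993). Values rose with transcript length across 83 nuclear genes (Spearman's rho 0.51, a description over genes that are not independent), with 15 of 41 shorter and 28 of 42 longer genes above 0. The 7 abundant mitochondrial genes were all above 0, with a median of 0.20, and mt-Nd5 had 4248, 4413 and 4321 RPM in WT St and 5364, 4836 and 5263 RPM in TNFR2-/- St. These groups did not overlap, and the value of 0.25 (SE 0.10) did not pass the test (adjusted p = 0.130).

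The assembly factors of the complexes, which insert cofactors and join subunits, were counted apart. In TNFR2-/- NS vs WT NS, 19 of 46 tested rose and 0 fell, where 6.11% of all genes were called higher, and the median log2 fold change was 0.29. The smallest adjusted p values were those of Foxred1 for complex I (0.36, adjusted p = 0.00851), Taco1, which promotes translation of mt-Co1 (0.48, adjusted p = 0.0135), and Coa3 for complex IV (0.32, adjusted p = 0.0191). In TNFR2-/- St vs TNFR2-/- NS, 17 fell and 1 rose, with a median of −0.25. The shares of all genes were 16.3% called lower and 9.62% called higher. The rise was Sdhaf2, which attaches flavin to the Sdha protein. It went from 41.5, 42.2 and 48.4 RPM to 64.8, 61.0 and 64.0 RPM in TNFR2-/- OPCs (0.52, SE 0.07, adjusted p = 0.000495). In WT OPCs it went from 36.2, 33.1 and 36.3 to 65.8, 58.9 and 63.0 RPM (0.82, SE 0.07, adjusted p = 2.36e-05). There it was the 1 factor of 46 that rose, and 2 factors fell, Ndufaf4 and Ttc19. In that comparison 7.70% of all genes were called higher and 8.36% lower.

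Of 8 genes for other electron donors and carriers, 5 rose in TNFR2-/- NS vs WT NS, where 6.11% of all genes were called higher. The median was 0.30. Etfa, Etfb and Etfdh, which pass electrons from fatty acid oxidation to ubiquinone, changed by 0.37, 0.30 and 0.33 (adjusted p = 0.0116, 0.0199 and 0.0215). In the stimulated cultures, 3 rose in TNFR2-/- St vs WT St, where 2.70% of all genes were called higher. Among them was Gpd2, the glycerol phosphate dehydrogenase of the inner membrane, with 114, 87.8 and 114 RPM in WT St and 183, 164 and 210 RPM in TNFR2-/- St (0.81, SE 0.17, adjusted p = 0.0294). Gpd2 was highest in the libraries of culture 5, at 182 RPM in NS and 210 RPM in St.

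Genes that maintain and read the mitochondrial genome had 1 call among 13 in TNFR2-/- NS vs WT NS, a share near the 6.11% of all genes called higher. It was the elongation factor gene Tefm (0.60, adjusted p = 0.0289). With cytokines, 2 of the 13 fell and 1 rose (0.31) in WT OPCs, where 8.36% of all genes were called lower and 7.70% higher. In TNFR2-/- OPCs 3 fell and 0 rose, against 16.3% and 9.62% of all genes. The mitochondrial RNA polymerase gene Polrmt and the DNA polymerase gene Polg fell in both genotypes. Their log2 fold changes were −0.36 and −0.77 in WT and −0.40 and −0.79 in TNFR2-/- OPCs (adjusted p = 0.00131 for both in WT, 0.000484 and 0.000852 in TNFR2-/-). The large ribosomal RNA mt-Rnr2 fell in WT OPCs, from 1668, 1589 and 1514 RPM to 1050, 1204 and 1033 RPM (−0.54, SE 0.13, adjusted p = 0.0149), and had a value of −0.23 in TNFR2-/- OPCs (adjusted p = 0.227). The interaction for mt-Rnr2 was 0.31 (adjusted p = 0.714). Of 76 mitochondrial ribosomal protein genes, 16 rose in TNFR2-/- NS vs WT NS (median 0.20, against 6.11% of all genes called higher), and 25 fell in TNFR2-/- St vs TNFR2-/- NS (median −0.19, against 16.3% of all genes called lower). The 98 cytosolic ribosomal protein genes had medians of −0.05 and −0.17 in these comparisons. In the former, 0 were called higher and 3 lower, against 6.11% and 4.75% of all genes. In the latter, 2 were called higher and 9 lower, against 9.62% and 16.3% of all genes.

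Of 12 regulators of these genes tested, 2 rose and 3 fell in TNFR2-/- NS vs WT NS. Of all genes, 6.11% were called higher and 4.75% lower. The log2 fold change was below 0 for 10 of the 12, with a median of −0.25 against 0.04 for all genes. In 7 all TNFR2-/- libraries lay below all WT libraries, against 14.3% of all genes. Esrra, a nuclear receptor that acts on respiratory genes, had 33.6 to 34.1 RPM in WT NS and 42.8 to 46.8 RPM in TNFR2-/- NS (0.41, SE 0.07, adjusted p = 0.0146), and its coactivator Ppargc1a rose by 0.30 (adjusted p = 0.0459). Yy1, Creb1 and Sp1, which bind promoters of many genes, fell (−0.48, −0.32 and −0.27, adjusted p = 0.0195, 0.0210 and 0.0405). With cytokines, Ppargc1a went from 51.3, 49.1 and 43.0 to 22.7, 22.1 and 22.2 RPM in WT and from 61.7, 57.4 and 58.9 to 33.5, 33.8 and 37.1 RPM in TNFR2-/- OPCs. These falls of −1.01 and −0.73 (adjusted p = 1.19e-05 and 0.000115) left it higher in TNFR2-/- St than in WT St (0.58, adjusted p = 0.0102), and Ppargc1b fell by a similar amount in each genotype (−0.93 and −0.90). Hif1a, which is known to shift cells away from respiration under low oxygen, rose by 0.48 in WT and 0.78 in TNFR2-/- OPCs (interaction 0.31, adjusted p = 0.512).

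Some enzymes whose products act on the chain were induced by the cytokines in both genotypes, and 3 of 8 genes on this list rose in each. Of all genes, 7.70% were called higher in WT and 9.62% in TNFR2-/- OPCs. In TNFR2-/- OPCs 1 of the 8 fell, where 16.3% of all genes were called lower, and 5 were below 0. Nos2, which makes the nitric oxide that blocks complex IV, had 0 to 3 reads in NS libraries, whereas WT St libraries had 178 to 312 and TNFR2-/- St libraries 195 to 660. Irg1, which makes the complex II inhibitor itaconate, had 0 to 1 reads in NS libraries, whereas WT St libraries had 131 to 236 and TNFR2-/- St libraries 216 to 1304. For both, the highest library was that of TNFR2-/- culture 5, and the difference between the stimulated genotypes did not pass the test (adjusted p = 0.220 for Nos2 and 0.197 for Irg1). Sod2, the superoxide dismutase of the matrix, rose by 0.32 in WT and by 0.43 in TNFR2-/- OPCs (adjusted p = 0.0301 and 0.00455).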

How the data were processed

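RNA was sequenced from 12 libraries of OPCs, 3 in each of 4 groups. According to the submitters' processing notes, reads were trimmed with Trim Galore, aligned with STAR to GRCm38 and analyzed with edgeR, and the study's methods give paired-end reads. The authors deposited FPKM for NS and St libraries in separate tables of 45792 entries, and 229 entries of 99 repeated symbols were left out. No column of values was left unmapped. The FPKM of a gene are whole multiples of 1 read, and whole reads (within 0.02) were recovered for all 26636 genes above 0 in at least 2 libraries. RPM are these reads per 1000000 read pairs of the library total.

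Groups were compared with limma 3.58.1 in R 4.3.3 on log2(FPKM + 0.5), with 4 group means over 12 libraries and a mean-dependent prior, for the 18081 genes whose mean reached 0.1 FPKM. Benjamini-Hochberg adjustment ran over all 18081. Fold changes are on the log2(FPKM + 0.5) scale, which understates the change of low genes. The procedure was tested on simulated data. After subtraction of group means (13554 genes), an NS and an St library of 1 genotype correlated at 0.338 to 0.649 where they had the same number (6 pairs) and at −0.455 to 0.088 otherwise (12 pairs), so the numbers pair the libraries of a culture. Across genotypes they do not.

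The members and lists were chosen with earlier results of these data known. Named were all mitochondrial genes, complex II, Cyc1, Cycs and the isoform sets, up to 10 called genes of smallest adjusted p in each comparison (the 5 smallest where few were called), the lowest and highest of each complex, and the 3 smallest adjusted p of each list in each comparison, of which the lists' genes are printed in part. Genes called only by the fit with a block, and core genes beyond these, were named after their values were seen. Of 100 members, 99 were matched to GENCODE M21 for positions, lengths and shared sequences, 1 of them by its current symbol. Python 3.11.15, numpy 2.4.6, pandas 2.3.3 and matplotlib 3.10.9 were used. Alternatives were other pseudocounts, filters, scalings, fits, weights, voom on the recovered reads, a replicate block and leaving out libraries. Results for 1 item are not reported here.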

Additional observations from a re-analysis of the deposited data

How the results depend on the processing

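In TNFR2-/- NS vs WT NS, where 19 members were called, 12 were called with median-of-ratios scaling and 12 with quantile normalization, 0 with only the 6 libraries compared, 48 with weights for each library, 46 without both libraries of TNFR2-/- culture 5 (chosen after seeing the data) and 0 to 33 with each library left out in turn. In TNFR2-/- St vs TNFR2-/- NS, where 12 were called, 2 were called with median-of-ratios scaling, 2 with only the 6 libraries, 59 with the replicate block that pairs the libraries of a culture and 3 to 26 with a library left out. In TNFR2-/- St vs WT St, where 2 were called, 5 were called with a filter at 1 FPKM, 0 with the 6 libraries, 11 with weights, 4 with the replicate block, 4 without culture 5 and 0 to 4 with a library left out. In WT St vs WT NS, where 0 were called, 1 was called with a filter at 1 FPKM, 1 with median-of-ratios scaling, 2 with quantile normalization, 4 with the 6 libraries, 3 with weights, 1 with voom, 8 with the replicate block, 1 without culture 5 and 0 to 1 with a library left out. The interaction gave 0 throughout, and other pseudocounts, no filter, no trend and scaling without mitochondrial genes kept each count within 1.5 times. In the first comparison the block gave 25. The cause of these moves was not tested, beyond the loss of libraries where some were left out.

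The median of the nuclear genes kept its direction in all settings for 4 comparisons. In TNFR2-/- St vs WT St the value turned to −0.031 when TNFR2-/- St 2 was left out and also turned negative when TNFR2-/- St 4 was, and leaving out 1 library at a time gave −0.031 to 0.087. The interaction median of the 13 mitochondrial genes turned to −0.034 with quantile normalization and ranged from −0.047 to 0.070 with a library left out. No called gene turned direction. Over the alternatives, calls of single genes held in 337 settings and were lost in 138 for TNFR2-/- NS vs WT NS, in 223 and 77 for TNFR2-/- St vs TNFR2-/- NS and in 41 and 9 for TNFR2-/- St vs WT St. Genes with few reads, such as Cox8b and Ndufa4l2 (at most 9), are the least certain.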
